A study of Homo sapiens with 18 samples.

Results

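Regions of T47D chromatin that opened with a high dose of progestin at 6 h and stood near the vehicle level at 18 h are described here. They were chosen on the measured values. A region was taken if its mean level over all libraries was at least 1 CPM (CPM is the usual unit of counts scaled to library size), if its mean log2 CPM with 10 nM R5020 exceeded that with vehicle by at least 1.5 at 6 h, and if that difference was under 0.5 at 18 h. Of the 132604 regions, 741 (0.559%) met the rule, and they are called fading gains below. The difference between 10 nM and vehicle within a time is called the response. Both responses chose the regions, so they are given as descriptions. Test calls on them are printed beside those of all regions, and nothing is concluded from them.

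T47D is an established human breast carcinoma line that carries the progesterone receptor, and chromatin was profiled by Omni-ATAC-seq, in which the Tn5 transposase inserts adapters into open DNA. All cells were first synchronized by serum starvation in phenol red-free medium. They were then given DMSO vehicle, 0.1 nM R5020 or 10 nM R5020 (promegestone, a synthetic progestin) for 6 h or for 18 h, and each of these 6 groups has 3 libraries. Nothing in the labels ties replicates to separate cultures. Each p-value here is therefore set against a spread among libraries that may be only technical.

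The progesterone receptor is a hormone-activated transcription factor. Once it binds an agonist such as R5020 it settles on DNA, often together with pioneer factors that loosen nucleosomes, and recruits remodelling complexes that make enhancers accessible. In breast epithelium such enhancers govern genes of proliferation and secretory differentiation, and agonist-bound receptor is itself turned over with time. The regions are placed by their hg19 positions, exactly as the deposited table gives them. Sequences, genes and motifs at these positions were not analysed here, nor was the cell line label checked against marker genes.

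Among 12754 regions that met the level and 6 h conditions, fading gains were the smallest class, at 5.81%. Another 5293 (41.5%) kept a response of 0.5 to under 1.5 at 18 h and are called partly kept gains, and 6720 (52.7%) kept a response of at least 1.5 and are called kept gains. The median response of the fading gains was 1.73 at 6 h, with quartiles of 1.60 and 1.94, and 0.28 at 18 h, with quartiles of 0.08 and 0.42. Their 6 h response reached 3.32 at most, and 138 of the 741 stood below vehicle at 18 h. The class has no gap at its edges. Just inside the 6 h limit, a region on chromosome 17 from 66545862 to 66546250 had a response of 1.5003, and one at 234796735 to 234797281 of chromosome 1 had 1.5005. Just outside it, a region on chromosome 17 from 4776202 to 4776884 had 1.4996, and one at 66784865 to 66785135 of chromosome 12 had 1.4995. At the 18 h limit the nearest members stood at 0.4994 (chromosome 7 from 75599097 to 75599251) and 0.4989 (chromosome 1 from 168590447 to 168591036). The nearest regions left out stood at 0.5001 (chromosome 5 from 124148578 to 124148746) and 0.5004 (chromosome 11 from 107678565 to 107678958).

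**Figure D1:**
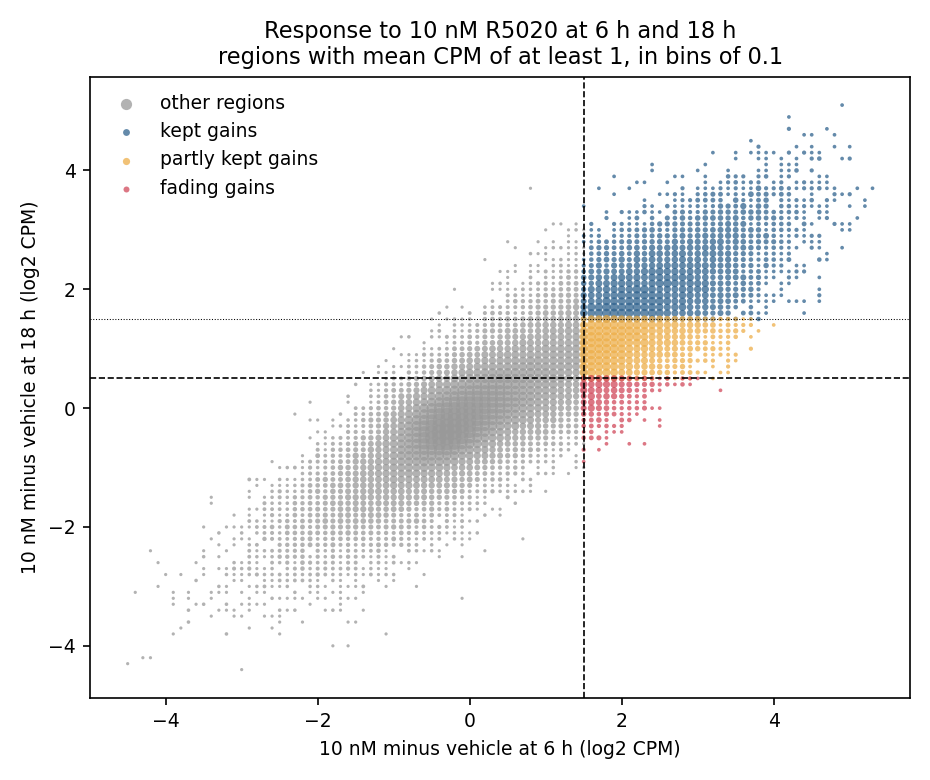
Response to 10 nM R5020 at 6 h (x axis) and 18 h (y axis), both as log2 CPM differences from vehicle, for the 106059 regions with a mean of at least 1 CPM, gathered in bins of 0.1 whose marker area grows with the number of regions in each class. Dashed lines mark 1.5 at 6 h and 0.5 at 18 h, the dotted line marks 1.5 at 18 h, and the 741 fading gains form the lower right edge of a continuous cloud.

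Libraries held 8756311 to 39984217 counts in regions. The fading gains are weak, with a median mean level of 1.76 CPM against 2.52 CPM for kept gains and 3.15 CPM for all regions of at least 1 CPM. The median raw count of a member ran from 6 in replicate 1 of vehicle at 6 h, a library of 11468476 counts, to 117 in replicate 3 of 10 nM at 6 h. It was 23 in the library with the fewest counts, replicate 3 of 10 nM at 18 h. Within a group, weak regions shifted together. In vehicle cells at 6 h the median log2 CPM of the members was -0.49, 0.05 and 0.56 in replicates 1, 2 and 3, and the top 5000 regions took up 41.7%, 38.7% and 37.0% of what was counted in these libraries. That share ran from 30.7% to 41.7% over all libraries, and its part in the choice of members was not tested by a model. Quantile normalization, which gives every library the same distribution of levels and was chosen after seeing the data, left 386 regions that met the rule, 241 of them among the 741.

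The response faded from both sides. With 10 nM, the median log2 CPM of the members in the 3 libraries was 1.79, 1.61 and 1.85 at 6 h and 0.72, 1.02 and 1.15 at 18 h, so every library at 18 h lay below every library at 6 h. With vehicle the medians went from the values above to 0.49, 0.62 and 0.99, and the ranges of the times overlapped. Per member, 10 nM was lower at 18 h than at 6 h by a median of 0.91 (log2 difference -0.91) and vehicle was higher by 0.65. Both held at 605 members (81.6%). The fall with 10 nM was the larger part at 436 members and the rise with vehicle at 305. Without replicate 1 of vehicle at 6 h, the rise with vehicle was 0.39. The rule selects for low vehicle and high 10 nM values at 6 h and for the reverse at 18 h, so both the fall with 10 nM and the rise with vehicle are fixed in part by the choice of members.

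**Figure D2:**
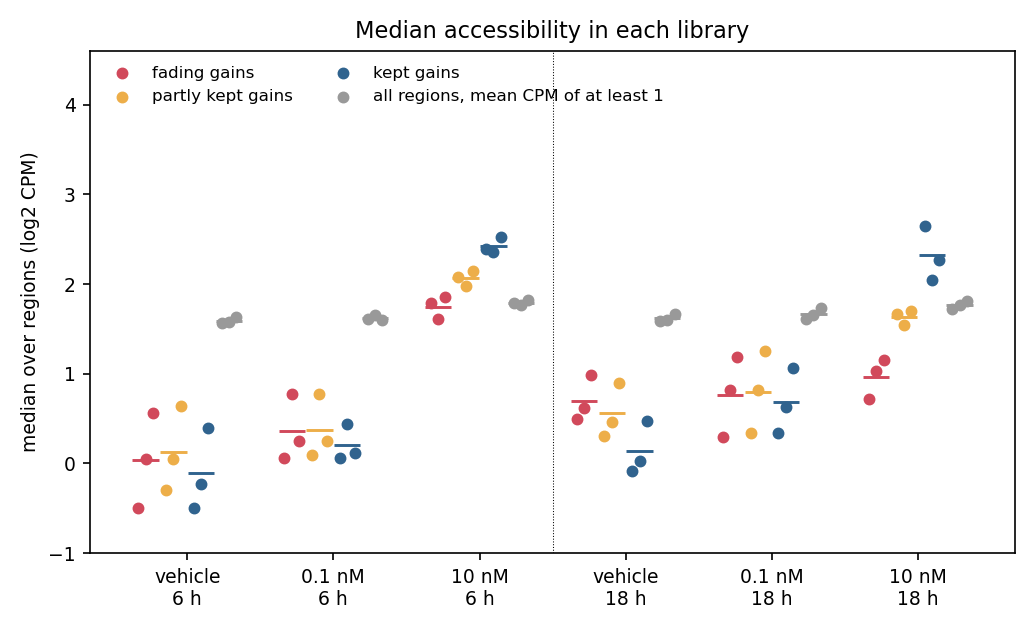
Median log2 CPM over the fading, partly kept and kept gains and over all regions of at least 1 CPM (y axis) in each of the 18 libraries, by group (x axis), with points in replicate order and a line at the mean of 3. The fading gains go from 1.61 to 1.85 with 10 nM at 6 h to 0.72 to 1.15 at 18 h, where the kept gains stand at 2.05 to 2.64.

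In the fit over all 132304 tested regions, edgeR called 579 of the 741 members higher with 10 nM than with vehicle at 6 h, where 16.7% of all regions were called higher. At 18 h it called 0 higher and 1 lower, against 12.8% and 7.56% of all regions, and 11 members had an unadjusted p under 0.05 in the direction of a gain, as had 18.5% of all regions. Levels with 10 nM were called lower at 18 h than at 6 h at 133 members, beside 1.13% of all regions. For vehicle between the times edgeR called 0 members higher (0% of all regions), with 101 at an unadjusted p under 0.05 (1.55% of all regions). In a fit of the vehicle libraries alone with the replicate number as a block, chosen after seeing the data, edgeR called 5 of 735 tested members higher, beside 0.312% of all regions. The direct test of whether the response to 10 nM changed between the times called 0 members, beside 0.00151% of all regions, with 434 at an unadjusted p under 0.05 in the falling direction (4.05% of all regions) and a smallest edgeR adjusted p of 0.0535. These contrasts chose the members and support nothing further. By CPM, 10 nM lay above vehicle without overlap at 648 members at 6 h (25.2% of all regions) and at 35 at 18 h (19.5% of all regions). The 10 nM libraries of 18 h lay below those of 6 h at 442 members (11.3% of all regions), and vehicle at 18 h lay above vehicle at 6 h at 159 (5.23% of all regions).

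The 2 sides of the fade differed in size along a gradient of level, described here with values the rule used. At 427 members with a mean of 1 to under 2 CPM, vehicle rose by a median of 0.83 between the times and 10 nM changed by -0.81. At 28 members with a mean of at least 8 CPM the vehicle change was 0.09, and the 10 nM change was -1.25. Classes of 2 to under 4 CPM and of 4 to under 8 CPM lay between, with vehicle at 0.55 and 0.28 and 10 nM at -1.01 and -1.08. Such a gradient was not particular to fading gains. From the weakest class to the strongest, vehicle in partly kept gains changed by 0.57, 0.42, 0.24 and 0.08. Their 10 nM changes were -0.38, -0.49, -0.60 and -0.62. Between the same end classes, vehicle in kept gains went from 0.28 to 0.08 and 10 nM from -0.02 to -0.29. Over all regions vehicle went from 0.14 to -0.10 and 10 nM from 0.04 to -0.25. At all 28 strong members the 10 nM libraries lay above the vehicle libraries without overlap at 6 h, as at 13.6% of all 25465 regions of that level. At 26 of them the 10 nM libraries of 18 h lay below those of 6 h without overlap, again beside 13.6%, and nothing is read from either count since the rule used these values. The vehicle groups of the times overlapped at 26 of the 28, with 1 member higher and 1 lower at 18 h. Of all regions of that level, 1.37% were higher and 4.67% lower without overlap. The rule used the vehicle values too, so nothing is read from this overlap. These level classes were set after the values were seen.

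**Figure D3:**
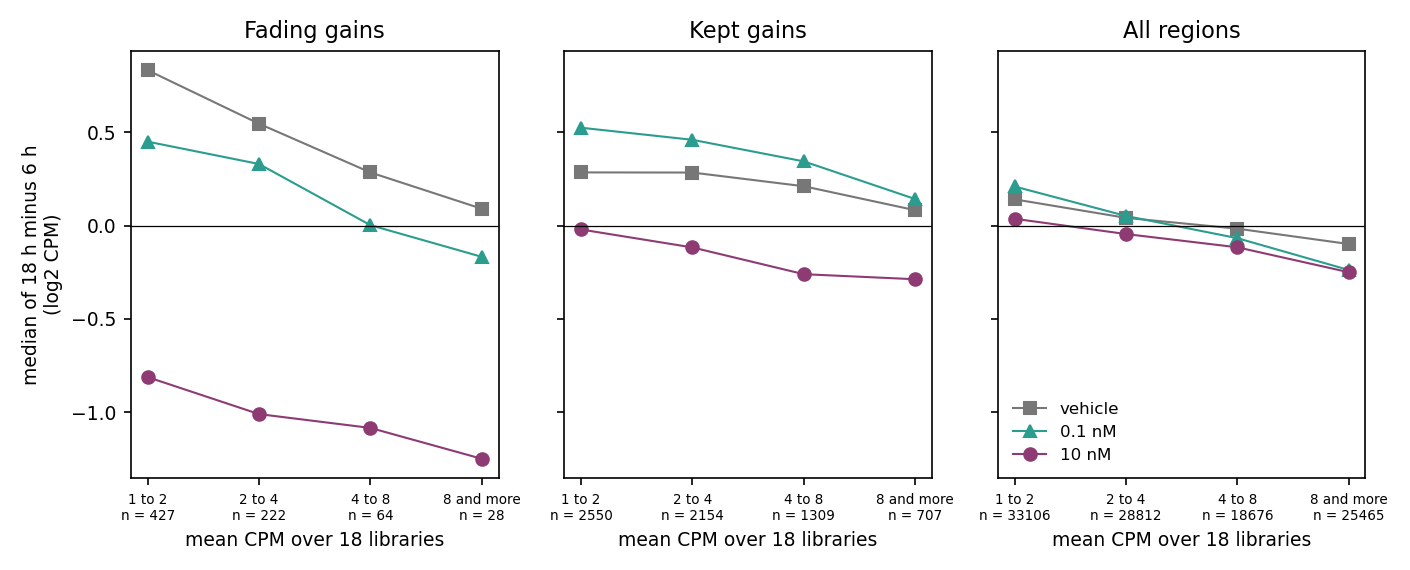
Median change from 6 h to 18 h in log2 CPM (y axis) with vehicle, 0.1 nM and 10 nM, for fading gains, kept gains and all regions in 4 classes of mean CPM (x axis, with the number of regions). In the strongest fading gains vehicle changed by 0.09 and 10 nM by -1.25.

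The member with the highest level under 10 nM at 6 h lies on chromosome 5 from 149889694 to 149890378 and is 684 bp wide. Its level was 21.2, 20.5 and 17.8 CPM with vehicle at 6 h and 68.4, 68.3 and 75.5 CPM with 10 nM. At 18 h, vehicle stood at 18.5, 20.5 and 21.0 CPM and 10 nM at 36.6, 24.1 and 23.2 CPM. The 10 nM libraries thus remained above the vehicle libraries at 18 h, by a log2 difference of 0.45, while replicate 1 carried most of what was left. With 0.1 nM the level was 20.9 CPM in each library at 6 h and 14.9, 17.3 and 15.2 CPM at 18 h.

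It has 3 further members beside it, and the 4 span 74.4 kb on chromosome 5 from 149828180 to 149902538, the stretch with the most fading gains when gaps of up to 100 kb are allowed. It holds 16 regions of at least 1 CPM, of which 1 is a partly kept gain and 0 are kept gains. The member from 149828180 to 149828503 stood at 7.00, 7.53 and 7.40 CPM with 10 nM at 6 h and at 2.01, 2.99 and 2.59 CPM at 18 h, with vehicle between 1.59 and 2.11 CPM throughout. For the member from 149868224 to 149868946 the 10 nM values were 14.8, 10.7 and 19.1 CPM at 6 h and 2.95, 5.49 and 6.01 CPM at 18 h. The last, from 149902052 to 149902538, went from 13.2, 12.3 and 14.0 CPM to 3.73, 6.30 and 3.97 CPM. At each of the 4 members every 10 nM library of 18 h lay below every one of 6 h. The same held at 442 of all 741 members and at 11.3% of all regions. The rule used these values, so nothing is read from this order. The widths of the 4 members ran from 323 to 722 bp.

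On chromosome 17 from 29900036 to 29901342, a wide member of 1306 bp, 10 nM gave 39.2, 42.0 and 47.3 CPM at 6 h against 14.2, 12.9 and 16.0 CPM with vehicle. At 18 h it gave 24.1, 23.1 and 18.4 CPM, and 0.1 nM gave 18.8, 23.2 and 24.2 CPM, so the doses overlapped there. On chromosome 16 the region from 85642206 to 85642582 had 40.5, 34.5 and 43.5 CPM with 10 nM at 6 h and 16.0, 21.7 and 17.7 CPM at 18 h, with vehicle at 11.9 to 15.5 CPM over both times. Another on that chromosome, from 8779699 to 8780498, went from 30.5, 32.2 and 39.9 CPM to 21.8, 14.4 and 17.3 CPM with 10 nM. All 3 regions kept vehicle levels that overlapped between the times, as did 579 of the 741 members.

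The region on chromosome 8 from 110620019 to 110620497 showed the same order. Its 10 nM level was 37.0, 39.1 and 41.5 CPM at 6 h and 16.9, 8.89 and 9.15 CPM at 18 h, where vehicle stood at 7.65, 11.1 and 8.20 CPM and overlapped with it. Levels with 0.1 nM also differed between the times there, with 14.0, 11.8 and 14.5 CPM at 6 h and 5.27, 8.94 and 7.12 CPM at 18 h (log2 change -0.93, SE 0.24, edgeR unadjusted p = 0.000913, adjusted p = 0.288). On chromosome 12 from 56475658 to 56476063, 10 nM gave 30.4, 31.0 and 29.4 CPM at 6 h, and 10.9, 13.6 and 10.3 CPM at 18 h, with vehicle at 9.01 to 10.4 CPM at 18 h.

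**Figure D4:**
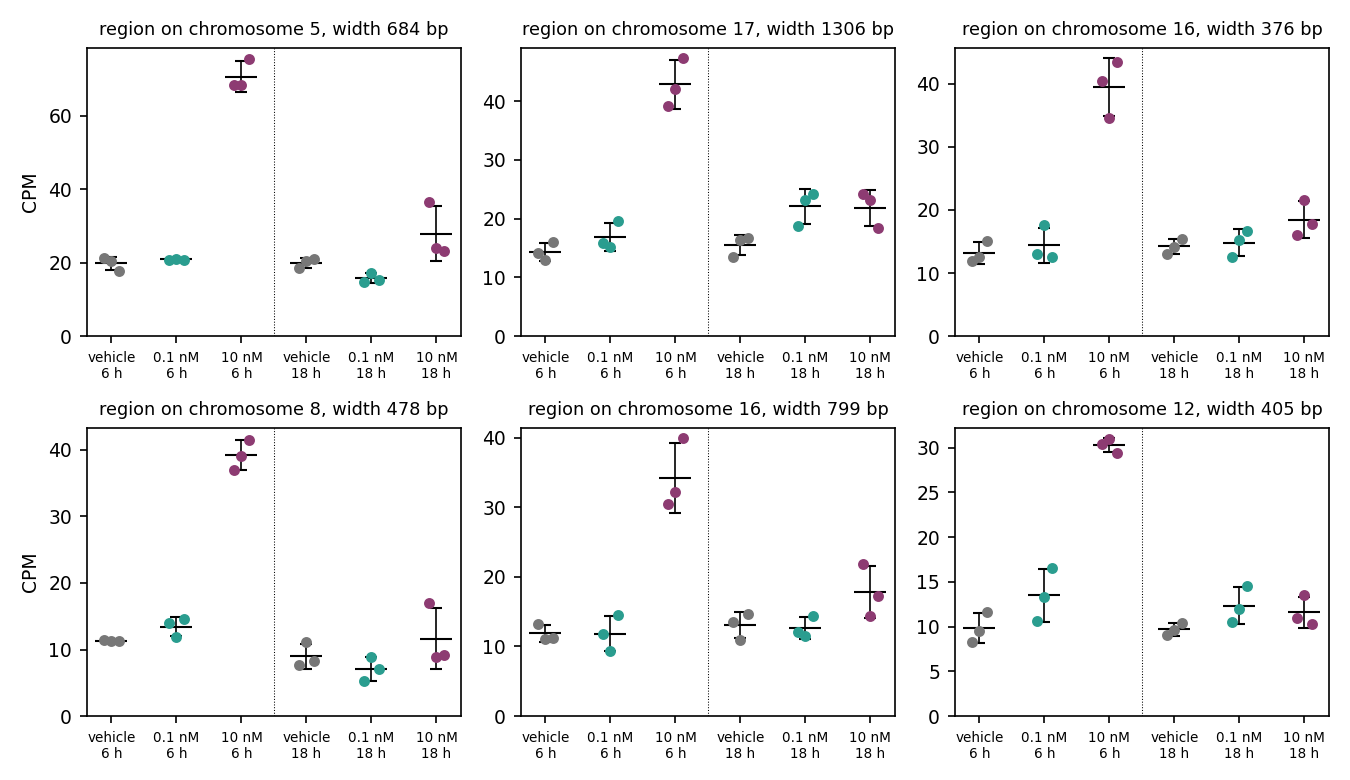
CPM (y axis, from 0) in each library of the 6 groups (x axis) for the 6 fading gains with the highest mean level under 10 nM at 6 h, with a bar at the mean and whiskers of 1 SD (n = 3). In all 6 panels the 10 nM libraries of 6 h lie above every other library.

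By size of the drop, from the 6 h response to the 18 h response, the leading member whose groups did not overlap at 6 h was on chromosome X from 69720789 to 69721332. It stood at 0.102, 0.507 and 0.812 CPM with vehicle and 4.87, 4.26 and 4.93 CPM with 10 nM at 6 h. At 18 h vehicle stood at 0.888, 0.873 and 1.12 CPM and 10 nM at 1.07, 1.13 and 1.39 CPM, a drop of 3.03 on the log2 scale. The vehicle value of 0.102 CPM in replicate 1 widens the 6 h response there. On chromosome 17 from 72432427 to 72432862 the 10 nM level went from 10.5, 10.1 and 12.2 CPM to 1.07, 1.86 and 1.39 CPM, inside the vehicle range of 0.978 to 3.33 CPM over both times. The region on chromosome 5 from 34865115 to 34865573 went from 4.16, 3.04 and 3.73 CPM to 1.21, 0.242 and 0.832 CPM with 10 nM, with vehicle at 0.568 to 1.30 CPM.

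Other large drops came with low or widely spread values. On chromosome 4 from 38593257 to 38594045, vehicle at 6 h stood at 0.205, 0.941 and 2.68 CPM, a wide spread between replicates, and 10 nM at 4.02, 5.17 and 7.40 CPM. The region on chromosome 1 from 226873249 to 226873447 had 0 counts in replicate 1 of vehicle at 6 h, where replicates 2 and 3 stood at 0.543 and 1.06 CPM, and 10 nM at 18 h reached 1.18, 2.26 and 1.57 CPM. On chromosome 2 from 36944902 to 36945257, the 10 nM libraries of 18 h ran from 0.162 to 2.31 CPM and so bracketed the vehicle libraries. On chromosome 12 from 75668173 to 75668561, vehicle at 6 h was low in every library, at 0.307, 0.471 and 0.406 CPM, and 10 nM gave 2.65, 1.59 and 2.74 CPM. At 18 h the groups overlapped, with vehicle at 1.14, 0.771 and 0.885 CPM and 10 nM at 1.13, 0.646 and 0.647 CPM. The low dose gave 1.86, 1.26 and 1.54 CPM at 6 h there, 3.73-fold above vehicle (edgeR adjusted p = 0.0138), and 1.36, 1.39 and 1.23 CPM at 18 h. That fold and p-value share the vehicle libraries of 6 h, whose low values were favoured by the rule and by the choice of large drops. The 8 largest drops ran from 2.48 to 3.03 on the log2 scale.

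At 3 members, 10 nM lay above vehicle at 6 h and below vehicle at 18 h without overlap at either time. Of all regions, 13.4% were below at 18 h whatever their order at 6 h, and the share with both orders was not counted. The strongest of the 3 members was on chromosome 10 from 86121777 to 86122453. It had 28.8, 27.5 and 31.1 CPM under 10 nM and 9.83, 9.96 and 10.7 CPM under vehicle at 6 h. At 18 h 10 nM stood at 8.42, 5.25 and 4.34 CPM and vehicle at 8.92, 8.73 and 10.6 CPM. On chromosome 19 from 47385498 to 47386181, 10 nM went from 4.54, 4.03 and 3.73 CPM to 0.966, 1.13 and 0.739 CPM, and vehicle at 18 h stood at 1.27, 1.54 and 1.53 CPM. The third, on chromosome 7 from 145756080 to 145756419, was named for this order after its values were seen, and went from 2.55, 3.04 and 3.01 CPM to 0.912, 0.889 and 0.739 CPM with 10 nM. Each of the 3 missed the threshold of the direct test of the change between times, which called 0 members.

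The low dose offers the one comparison whose libraries did not set the rule's differences. Between 18 h and 6 h with 0.1 nM, edgeR called 0 of the 741 members higher and 0 lower, beside 0% and 0.00151% of all regions (0 and 2 regions). At an unadjusted p under 0.05, 51 members were higher and 24 lower, or 6.88% and 3.24%, beside 6.34% and 3.47% of all regions. At the same cutoff 12.5% of partly kept gains were higher and 1.93% lower, and 17.4% and 1.52% of kept gains. DESeq2's Wald test called 1 member higher and 0 lower, beside 0.0882% and 0.049% of all regions. That member, named after its values were seen, lies on chromosome 6 from 148887266 to 148887752 and rose from 0.708, 0.900 and 0.878 CPM to 2.05, 2.91 and 2.94 CPM, and its edgeR adjusted p was 0.195. The libraries of 18 h lay above those of 6 h without overlap at 57 members and below them at 31, beside 6.73% and 6.3% of all regions. No fall with the low dose was thus called at any member by either tool.

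The direction at 0.1 nM depended on level. The median change over the members was 0.36 on the log2 scale, and 201 (27.1%) were lower at 18 h. Library medians at 0.1 nM stood at 0.06, 0.78 and 0.25 in the 6 h libraries and 0.30, 0.81 and 1.19 in the 18 h libraries, which overlap. Without replicate 3 at 18 h the change was 0.17, and without replicate 1 at 6 h it was 0.21. The top 5000 regions took 39.3%, 36.6% and 38.4% of the counts of these 6 h libraries and 39.6%, 36.6% and 33.0% of those of 18 h. Among members of at least 8 CPM, 19 of 28 were lower at 18 h, with a median of -0.17, where 81.8% of all regions of that level were lower (median -0.24) and 37.5% of kept gains (median 0.14). In the class of 1 to under 2 CPM 20.6% of the members and 35.4% of all regions were lower. Partly kept and kept gains of that class were lower at 15.4% and 15.7%.

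Against vehicle at 6 h, 0.1 nM was called higher at 16 members (2.16%) and lower at 0, beside 0.949% and 0.241% of all regions. At an unadjusted p under 0.05 it was higher at 65 (8.77%) and lower at 4, beside 5.06% and 3.77% of all regions. DESeq2's Wald test called 20 higher (1.4% of all regions) and 0 lower. The 0.1 nM libraries lay above vehicle without overlap at 81 members, beside 7.44% of all regions. Kept gains were called higher at 8.72% and partly kept gains at 3.67%. Vehicle libraries of 6 h entered the rule through their low values, which favours such calls, and the comparison with 0.1 nM shares them. The 16 gains were 1.94-fold to 6.27-fold, and each of the 16 was among the 579 calls with 10 nM. The doses themselves were called different at 1 of them, while over all members 10 nM was called above 0.1 nM at 461 (15.1% of all regions). The rule selected for high 10 nM values at 6 h, which favours calls of 10 nM above 0.1 nM, so nothing is read from the 461. The count of 16 became 6 without replicate 1 or without replicate 3 of 0.1 nM, where all regions gave 632 and 776 in place of 1256. It became 5 without replicate 1 or without replicate 2 of vehicle, where all regions gave 641 and 557.

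The highest level with 0.1 nM at 6 h among these 16 was on chromosome 15 from 62764926 to 62765576. It stood at 7.68, 8.55 and 7.71 CPM with vehicle, 17.7, 18.5 and 19.8 CPM with 0.1 nM and 21.9, 22.7 and 24.6 CPM with 10 nM. The rise with 0.1 nM was 2.30-fold (log2 1.20, SE 0.21, edgeR adjusted p = 0.00386) and passed under all 12 alternatives. At 18 h the low dose stood at 20.1, 17.5 and 12.4 CPM and the high dose at 18.6, 10.1 and 11.7 CPM, against 9.26, 10.3 and 8.32 CPM with vehicle. The low dose was still called higher at 18 h, 1.78-fold (edgeR adjusted p = 0.0345), but missed the threshold in 6 of 12 alternatives, with adjusted p up to 0.174.

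Every 0.1 nM library lay below every 10 nM library at 6 h there. On chromosome 1 from 162176958 to 162177613 the doses overlapped at 6 h. There 0.1 nM gave 18.6, 17.5 and 16.2 CPM at 6 h and 10 nM gave 17.4, 23.3 and 16.7 CPM, over 5.53, 8.11 and 6.41 CPM with vehicle (edgeR adjusted p for 0.1 nM = 0.0122). At 18 h the low dose ran from 10.2 to 23.7 CPM and the high dose from 7.39 to 13.8 CPM. On chromosome 4 from 24806533 to 24807406, 0.1 nM gave 13.4, 8.76 and 11.6 CPM at 6 h and 8.13, 5.13 and 8.17 CPM at 18 h, beside 5.45 to 6.09 CPM with vehicle at 18 h (edgeR adjusted p at 6 h = 0.0125). The region on chromosome 5 from 167710104 to 167710526 had 14.1, 9.66 and 9.73 CPM at 6 h and 7.47, 6.93 and 4.08 CPM at 18 h (edgeR adjusted p at 6 h = 0.0353). Calls of the last 3 regions were lost in 2, 4 and 5 of 12 alternatives, with adjusted p up to 0.0994, 0.100 and 0.235. None of these 3 was called with 0.1 nM at 18 h.

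At 18 h, 0.1 nM was called higher than vehicle at 6 members (0.81%) and lower at 1 (0.135%), beside 1.74% and 0.698% of all regions. Kept gains were called higher at 12.2%. DESeq2's Wald test called 10 members higher and 1 lower, beside 2.53% and 0.938% of all regions. The 0.1 nM libraries lay above vehicle without overlap at 43 members and below at 35, beside 8.99% and 7.11% of all regions. Between the doses at 18 h, edgeR called 10 nM higher at 16 members and lower at 2, beside 6.67% and 4.22% of all regions. Here the rule favours high vehicle values and low 10 nM values, so the comparisons of 0.1 nM with vehicle and with 10 nM share libraries that it used. Of the 16 members raised by 0.1 nM at 6 h, 4 were among the 6. On chromosome 11 from 19628957 to 19629534 the low dose gave 2.98, 2.88 and 2.82 CPM at 6 h and 4.83, 4.23 and 4.37 CPM at 18 h, over 1.31, 1.34 and 2.06 CPM with vehicle at 18 h (2.85-fold, edgeR adjusted p = 0.0159). The high dose stood at 1.98, 1.21 and 2.96 CPM there, so every 0.1 nM library exceeded every 10 nM library at 18 h. On chromosome 1 from 16505762 to 16505964, 0.1 nM stood at 2.48, 2.58 and 2.85 CPM at 6 h and 2.64, 3.60 and 1.90 CPM at 18 h, over 0.846 to 1.24 CPM with vehicle at 18 h (edgeR adjusted p = 0.0247).

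The region on chromosome 16 from 11846571 to 11847479 had 11.0, 8.45 and 10.3 CPM with 0.1 nM at 18 h and 4.90, 7.68 and 6.55 CPM at 6 h, where 10 nM gave 14.0, 16.0 and 18.8 CPM. At 18 h 10 nM gave 6.49, 5.82 and 7.39 CPM, below 0.1 nM in every library, and vehicle gave 5.16, 3.90 and 6.13 CPM (0.1 nM against vehicle, edgeR adjusted p = 0.0234). These 3 calls at 18 h were lost in 3, 5 and 4 of 12 alternatives, with adjusted p up to 0.118, 0.157 and 0.163. The 6 gains became 0 without replicate 1 of 0.1 nM or without replicate 1 or 2 of vehicle. All regions gave 1020, 957 and 1113 there, in place of 2307. The gains became 2 without replicate 2 of 0.1 nM, where all regions gave 1559.

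The 1 member called lower with 0.1 nM at 18 h was the chromosome 10 region from 86121777 to 86122453 described above. The low dose gave 8.35, 5.82 and 9.36 CPM at 6 h and 4.18, 4.78 and 3.61 CPM at 18 h, over 8.92, 8.73 and 10.6 CPM with vehicle at 18 h (2.25-fold lower, edgeR adjusted p = 0.00572). This call held in all 12 alternatives, with adjusted p up to 0.0387. Both doses thus lay below vehicle at 18 h without overlap. At 6 h 10 nM lay above vehicle, while 0.1 nM already lay below its 9.83, 9.96 and 10.7 CPM without overlap. That difference at 6 h was not called (0.1 nM against vehicle, edgeR adjusted p = 0.697). A second member was called lower without replicate 3 of 0.1 nM, where all regions gave 604 lower calls in place of 923.

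How far the choice depends on the libraries that made it was read from libraries left out. The rule was applied to 2 replicates of every group, and the response was then read in the third. Without replicate 1, 814 regions met the rule with median responses of 1.76 at 6 h and 0.29 at 18 h, and replicate 1 itself gave 1.76 and 0.98. Without replicate 2, the 1270 regions chosen had 1.81 and 0.20, and replicate 2 gave 1.30 and 0.83. Without replicate 3, the 1454 regions chosen had 1.80 and 0.11, and replicate 3 gave -0.45 and 0.35. The fade was thus smaller in replicates 1 and 2 than in the libraries that chose, and in replicate 3 the median response at 6 h was below 0.

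Kept gains chosen the same way had median responses at 6 h of 2.98, 2.49 and 2.05 in replicates 1, 2 and 3 when each was left out, and median drops of 0.12, 0.62 and 0.51. The share of newly chosen fading gains that met both response limits in the replicate left out was 13.0%, 10.9% and 6.33%, beside 5.61%, 1.18% and 1.59% of all regions of at least 1 CPM. Of the 741 members, 79 met the rule in all 3 versions, 306 in 2, 296 in 1 and 60 in 0. Of the regions of at least 8 CPM chosen without replicate 1, 2 or 3, members made up 21 of 62, 20 of 32 and 5 of 72. In this strong class the median drop in the replicate left out was 0.56, 1.10 and -1.499 for replicates 1, 2 and 3, and the median response of replicate 3 at 6 h was -1.15. Leaving out single libraries, replicate 3 of vehicle at 6 h moved the number of regions most, to 1505.

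**Figure D5:**
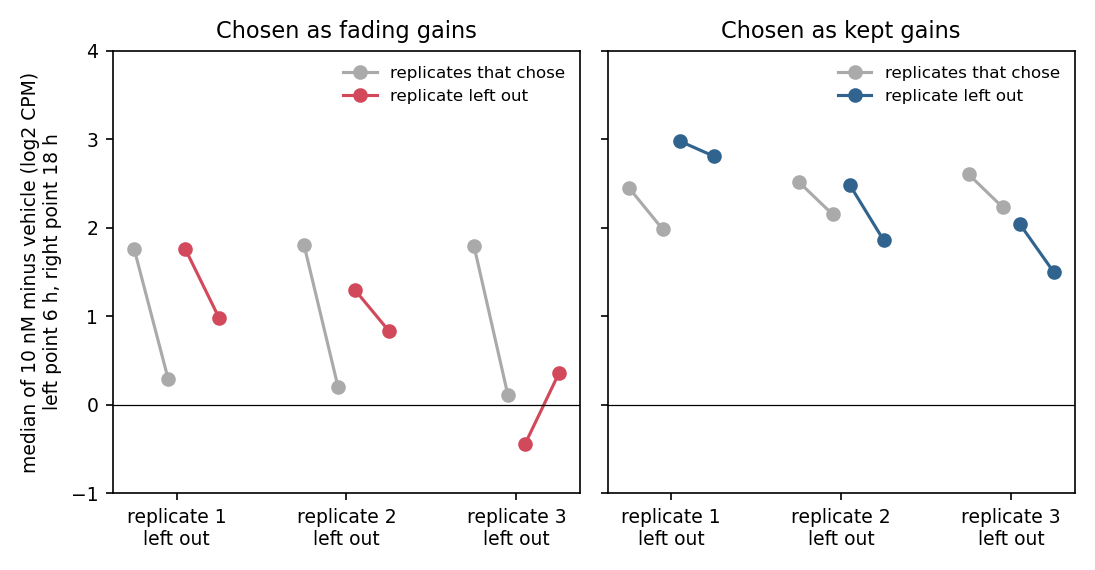
Median response to 10 nM in log2 CPM (y axis) at 6 h (left point of each pair) and 18 h (right point), in the 2 replicates that chose the regions (grey) and in the replicate left out (colour), for fading gains and kept gains. For fading gains the replicates left out gave 0.98, 0.83 and 0.35 at 18 h, and replicate 3 gave -0.45 at 6 h.

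Among the 79 members chosen in every version, the highest levels with 10 nM at 6 h were those of a region of chromosome 11 (113210551 to 113211442) and one of chromosome 8 (125681412 to 125682417), both named after their values were seen. On chromosome 8, 10 nM gave 22.7, 23.2 and 28.6 CPM at 6 h and 7.56, 8.40 and 6.93 CPM at 18 h, with vehicle at 6.74 to 8.70 CPM at 6 h and 6.01 to 7.74 CPM at 18 h. On chromosome 11 the 10 nM level went from 22.9, 20.4 and 31.9 CPM to 6.12, 5.66 and 7.67 CPM, and 0.1 nM from 9.41, 9.12 and 18.0 CPM to 5.38, 5.40 and 13.7 CPM. Replicate 3 was the highest library of each group on chromosome 11. The chromosome 17 region from 72432427 to 72432862 and the chromosome 5 region from 149868224 to 149868946 were also among the 79.

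Width and position were not used by the rule, although both relate to level. Fading gains had a median width of 367 bp, with quartiles of 262 and 512 bp, against 405 bp for partly kept gains, 430 bp for kept gains and 471 bp for all regions of at least 1 CPM. Within level classes, members of 1 to under 2 CPM had a median of 291 bp and all regions of that level 292 bp, while members of at least 8 CPM had 743 bp and all regions 933 bp. Members lay 4376 bp at the median from the nearest region of the list, and kept gains 4574.5 bp.

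Fading gains were scattered. With gaps of up to 100 kb joined, 662 members stood alone, 33 stretches held 2, 3 held 3 and 1 held 4. A second member lay within 10 kb of 1.08% of them and within 100 kb of 10.7%, and members lay within these distances of 0.974% and 8.34% of all regions of at least 1 CPM. A kept gain lay within 10 kb of 56 members (7.56%), compared with 7.55% of all regions and 17.2% of kept gains themselves, and within 100 kb of 47.4%, 44.7% and 58.2%. The stretch on chromosome 19 from 47385498 to 47447070 held 3 members and 0 kept gains among 9 regions. By chromosome the members took 0.415% of the regions of at least 1 CPM on X, 0.441% on 18 and 0.975% on 21, where 16 members lay, around 0.699% over all chromosomes. Kept gains took 7.05%, 7.94% and 4.69% of the same chromosomes, and 6.34% over all. No test of these shares was made.

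Replicates of vehicle at 6 h and of 10 nM spread more in the fading gains than in kept gains. The median SD of log2 CPM among the vehicle libraries of 6 h was 0.648 in fading gains, 0.577 in kept gains and 0.336 in all regions of at least 1 CPM. With 10 nM at 18 h it was 0.518, 0.411 and 0.430, and with 10 nM at 6 h 0.251, 0.209 and 0.210. With vehicle at 18 h the order was not the same, at 0.388, 0.438 and 0.276. Partly kept gains had 0.585, 0.393, 0.225 and 0.388 in the groups as listed. The sets differ in level, with median mean levels of 1.76 CPM in fading, 2.08 CPM in partly kept and 2.52 CPM in kept gains. For all regions of at least 1 CPM it was 3.15 CPM. Spread was not compared at matched level. The sets of gains were also chosen with these same vehicle and 10 nM libraries, so nothing is concluded from their spread.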

How the data were processed

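The authors deposited raw read counts per region for 18 libraries in 1 table without normalization. BWA, MACS2 and build hg19 are named, per the submitters' processing notes. For tool versions, read filters, any Tn5 shift, how regions were merged and whether starts count from 0 or 1, the answer is not given in the sources used here. Columns were matched to samples by title. Counts were scaled with TMM in edgeR 4.0.16 (R 4.3.3), with 2 as the prior count of log2 CPM. The quasi-likelihood test was fitted once over the 18 libraries, 1 coefficient a group (12 residual degrees of freedom) after filterByExpr (minimum count 10, total 15), which kept 132304 regions, all 741 members included. Calls have a Benjamini-Hochberg adjusted p under 0.05 over all regions. SE is the log2 fold change divided by the square root of F. Alternatives, DESeq2 1.42.0 among them, are given in the closing section. Members, region lists and tests were chosen with earlier results of these data known.

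Regions were named by rule: the 8 largest drops among members separated at 6 h, the 6 highest with 10 nM at 6 h, the 4 highest with 0.1 nM among those called at 6 h, up to 4 per direction called with 0.1 nM at 18 h or between times, those nearest each limit, and the stretch with the most members. The scripts were tested on simulated data. No replicate was counted as a repeat of another, since every pair within a group exceeded sampling noise (chi-square per degree of freedom 3.28 to 27.8). Same-numbered vehicle libraries of the 2 times deviated together (r = 0.315, 0.12 and 0.444 across regions, each over the limit of 0.1), so that comparison was also fitted with the replicate number as a block. In each other comparison of 2 groups checked, at least 1 pair was at or under the limit.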

Additional observations from a re-analysis of the deposited data

Results flagged for a closer look

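A pair of named members had 10 nM above vehicle at 6 h and below it at 18 h in every library. On chromosome 10 from 86121777 to 86122453 the response at 18 h was -0.690, and on chromosome 19 from 47385498 to 47386181 it was -0.581, both in log2 CPM. The change between times did not pass the test over all regions at either, and both responses had a part in choosing these regions.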

How the results depend on the processing

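The number of regions that met the rule was 741. It was 1163 and 314 with a mean of at least 0.5 and 2 CPM, 2727 and 149 with a 6 h limit of 1 and 2, 138 and 2773 with an 18 h limit of 0 and 1, and 386 with quantile normalization, added after seeing the data. Without 1 library it ran from 509 to 1505, with 393 to 734 of the members among them. DESeq2 size factors gave 683, library size alone 580, and prior counts of 0.5 and 5 gave 957 and 543. The drop read in the replicate left out ran from -0.72 to 0.85 beside 1.54 over the members, and was 0.51 for replicate 2. Its sign turned in replicate 3, and the cause was not tested.

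For 0.1 nM between the times, DESeq2's Wald test gave 1 higher call in place of 0. The other alternatives gave 0 in each direction. For 0.1 nM against vehicle at 6 h, the 16 higher calls became 5 at an adjusted p under 0.01, 28 with a covariate (percent of counts held by the top 5000 regions) and 7 when only the 2 groups compared were fitted, and ran from 5 to 19 without 1 library. At 18 h, the 6 higher calls became 0 at an adjusted p under 0.01, 12 with the replicate block, 14 with the covariate, 3 when only those groups were fitted and 10 with DESeq2's Wald test, and ran from 0 to 7 without 1 library. The 1 lower call became 2 with the replicate block, 4 with the covariate, and 1 to 2 without 1 library. The replicate block gave 23 higher calls at 6 h and 0 between the times. Against vehicle, calls over all regions moved in the same direction under these settings. At 6 h, 1256 higher calls became 2885 with the covariate, 1925 with the replicate block and 837 when only those groups were fitted. At 18 h, 2307 higher calls became 4788, 3640 and 1862 in that order. The 923 lower calls at 18 h became 1726 with the covariate and 1732 with the replicate block. Deviations of same-numbered libraries correlated across regions with r = 0.582, 0.218 and -0.0847 for 0.1 nM between the times, 0.457, 0.000319 and -0.097 for 0.1 nM and vehicle at 6 h, and 0.447, 0.0976 and 0.455 at 18 h, so the numbers were not taken to pair these samples. For vehicle between the times all 3 pairs passed the limit of 0.1. The replicate block there was added after seeing the data. In the fit of all libraries it gave 0 members higher, with 177 at an edgeR unadjusted p under 0.05, beside 3.01% of all regions. A fit of the vehicle libraries alone gave 5 higher in place of 0, beside 0.312% of all regions. Both fits gave 0 members lower. The rule selected for low vehicle values at 6 h and high ones at 18 h, so nothing is read from these counts. With the member list left as chosen from all libraries, medians of the change between times kept their sign under every alternative run. For 10 nM and vehicle the rule itself favoured these signs, so nothing is read from their persistence. Counts limit the precision of weak members: their median was 6 reads in replicate 1 of vehicle at 6 h.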
